A study of Mus musculus with 69 samples.

Results

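The genes described here are 10 circadian clock and clock output genes: Per1, Per2, Per3, Cry1, Npas2, Nr1d1, Nr1d2, Dbp, Tef and Hlf. They were taken by symbol, each as the probe set with the highest mean among those that name a single gene, out of 18820 genes measured in this way. Of the 10, 8 had such a probe set. Nr1d1 (a nuclear receptor that represses clock genes) shared both of its probe sets with Thra, and Dbp (a clock output activator) shared its 1 probe set with Sphk2, so neither is given a value. After TPA, Hlf, Per3 and Tef fell between 4 and 12 h in all 3 strains, Cry1 was higher at 4 to 6 h, and by 24 h the means of the 5 genes lowered in every strain at 12 h lay nearer to untreated skin.

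The circadian clock is a feedback loop of transcription that runs in most mammalian cells, skin included. Clock or its relative Npas2 pairs with Arntl and switches on the Per and Cry genes at E-box sites, and the PER and CRY proteins then hold that pair back. Nr1d1 and Nr1d2 close a second loop by repressing Arntl, and the PAR bZIP factors Dbp, Tef and Hlf carry the rhythm to output genes through D-box sites, where Nfil3 acts against them.

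Dorsal skin of mice 8 weeks old was shaved and, 2 days later, treated with TPA in acetone. The treatment protocol gives 1 dose, whereas the overall design mentions replicate exposure, so the hours are read as hours after 1 dose on the protocol's word alone. TPA, a phorbol ester tumour promoter, acts through protein kinase C and inflames the skin. The arrays used are 27 of FVB mice, 25 of F1 mice (FVB/N x Spret/Ei) and 14 of SPR mice (Spret/Ei, a wild-derived strain of Mus spretus), and 3 further arrays whose strain is open entered no comparison. FVB was sampled at 0, 2, 6, 12, 24, 48, 72, 168 and 1008 h with 3 arrays each. F1 had 4 arrays at 0 h, 2 each at 4, 6, 12, 24 and 72 h, 3 at 48 h and 6 at 1008 h, and SPR had 2 each at 0, 4, 12, 24, 48 and 1008 h. Single arrays (F1 at 2 and 168 h, SPR at 2 and 6 h) are given as values with no test. The 0 h skin is untreated and no array is labelled as vehicle, so acetone, shaving and TPA cannot be told apart, nor can age at 1008 h. Time of day is not in the labels, so hours after TPA and hours of the daily cycle cannot be told apart either. Nothing ties an array to a mouse, so the spread behind each p-value may be technical.

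Promoter sequences from RefSeq, on build GRCm38.p6, were found for 7 of the 8 measured genes. They are shown for the members whose 250 bases before the transcription start hold a letter match to a clock or cAMP motif, because the clock pair and the PAR bZIP factors act at E-boxes and D-boxes; Hlf is shown for its cAMP element alone. Capitals mark the match, and each sequence reads 5′ to 3′ on the gene's strand. The E-box was searched as CACGTG, the D-box as TTATGTAA or TTACGTAA and the cAMP element (bound by Creb factors, and a known route to Per1) as TGACGTCA, on both strands, with no overlap between motifs found.
Per1, chr11:69098699-69098948, plus strand, E-box 166 to 161 bases before the start: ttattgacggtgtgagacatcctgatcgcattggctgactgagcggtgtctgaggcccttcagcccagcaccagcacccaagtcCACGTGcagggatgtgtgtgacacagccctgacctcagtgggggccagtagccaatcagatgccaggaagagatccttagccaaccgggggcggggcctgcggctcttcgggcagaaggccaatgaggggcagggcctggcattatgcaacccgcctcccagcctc
Per3, chr4:151044666-151044915, minus strand, D-boxes 205 to 198 and 158 to 151 bases before the start: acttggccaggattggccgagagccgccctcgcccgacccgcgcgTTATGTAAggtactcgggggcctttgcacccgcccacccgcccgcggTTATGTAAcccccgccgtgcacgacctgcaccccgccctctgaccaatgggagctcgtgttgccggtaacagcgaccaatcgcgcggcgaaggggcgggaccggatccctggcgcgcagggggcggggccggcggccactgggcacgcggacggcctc
Cry1, chr10:85185055-85185304, minus strand, E-box 60 to 55 bases before the start: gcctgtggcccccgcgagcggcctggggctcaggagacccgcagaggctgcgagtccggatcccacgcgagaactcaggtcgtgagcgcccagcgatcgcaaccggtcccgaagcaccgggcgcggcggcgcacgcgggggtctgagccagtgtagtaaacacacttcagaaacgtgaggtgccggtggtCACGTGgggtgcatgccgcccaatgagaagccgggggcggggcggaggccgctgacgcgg
Tef, chr15:81811164-81811413, plus strand, E-box 138 to 133 bases before the start: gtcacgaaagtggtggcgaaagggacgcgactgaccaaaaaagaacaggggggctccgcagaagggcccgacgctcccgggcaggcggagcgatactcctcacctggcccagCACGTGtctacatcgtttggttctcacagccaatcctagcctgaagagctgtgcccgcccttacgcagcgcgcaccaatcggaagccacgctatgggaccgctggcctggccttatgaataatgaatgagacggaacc
Hlf, chr11:90390918-90391167, minus strand, cAMP element 9 to 2 bases before the start: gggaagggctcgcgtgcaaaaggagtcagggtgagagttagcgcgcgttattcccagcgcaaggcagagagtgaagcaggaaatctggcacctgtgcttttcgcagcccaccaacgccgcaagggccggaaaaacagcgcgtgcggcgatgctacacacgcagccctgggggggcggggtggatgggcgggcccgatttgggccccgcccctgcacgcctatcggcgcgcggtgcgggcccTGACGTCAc
Tef has a further upstream start whose window also holds an E-box, 127 to 122 bases before it, and Per1 has a further start whose window holds none of the motifs. Over 9 windows of the 7 genes the E-box lay in 4 windows of 3 genes, the D-box in 1 and the cAMP element in 1, against 6.02%, 0.931% and 1.55% of 32851 mouse promoter windows of this length. These matches describe the letters only. The windows of Npas2 and Nr1d2 held none of these letters.

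Values are RMA log2 expression values, and probe sets of different genes are not compared in level. Changes are log2 differences from untreated skin of the same strain, with the standard error of a limma fit. Calls needed both an adjusted p under 0.05 (Benjamini-Hochberg, over all 18820 genes) and a log2 change of at least 1 in size, and only called genes are said to rise or fall. All 12 measured keratinocyte markers had means above the median of all genes (10.2 for Dsg3 to 12.2 for Krt5, against 6.13), but 2 arrays stood apart. Replicate 1 of SPR at 12 h had an interquartile range of 1.39 log2 units over genes and a keratinocyte marker score of -3.84, and replicate 2 of F1 at 72 h had a range of 2.39, against 3.40 to 3.89 on the other assigned arrays. Values at 12 h in SPR and at 72 h in F1 that rest on them are also given without both where a call or the size changed. Each of these groups then holds 1 array, so a call or a lost call there has no replicates behind it. Hepatocyte transcripts varied between arrays of several groups. Their marker score was up to 2.98 in FVB at 12 h, 2.07 in FVB at 24 h and 2.64 in F1 at 24 h, against 2.18 and 2.65 in FVB controls 2 and 3, -0.64 in FVB control 1 and -0.77 to -0.03 in F1 controls, and their part in the clock gene values was not tested.

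**Figure D1:**
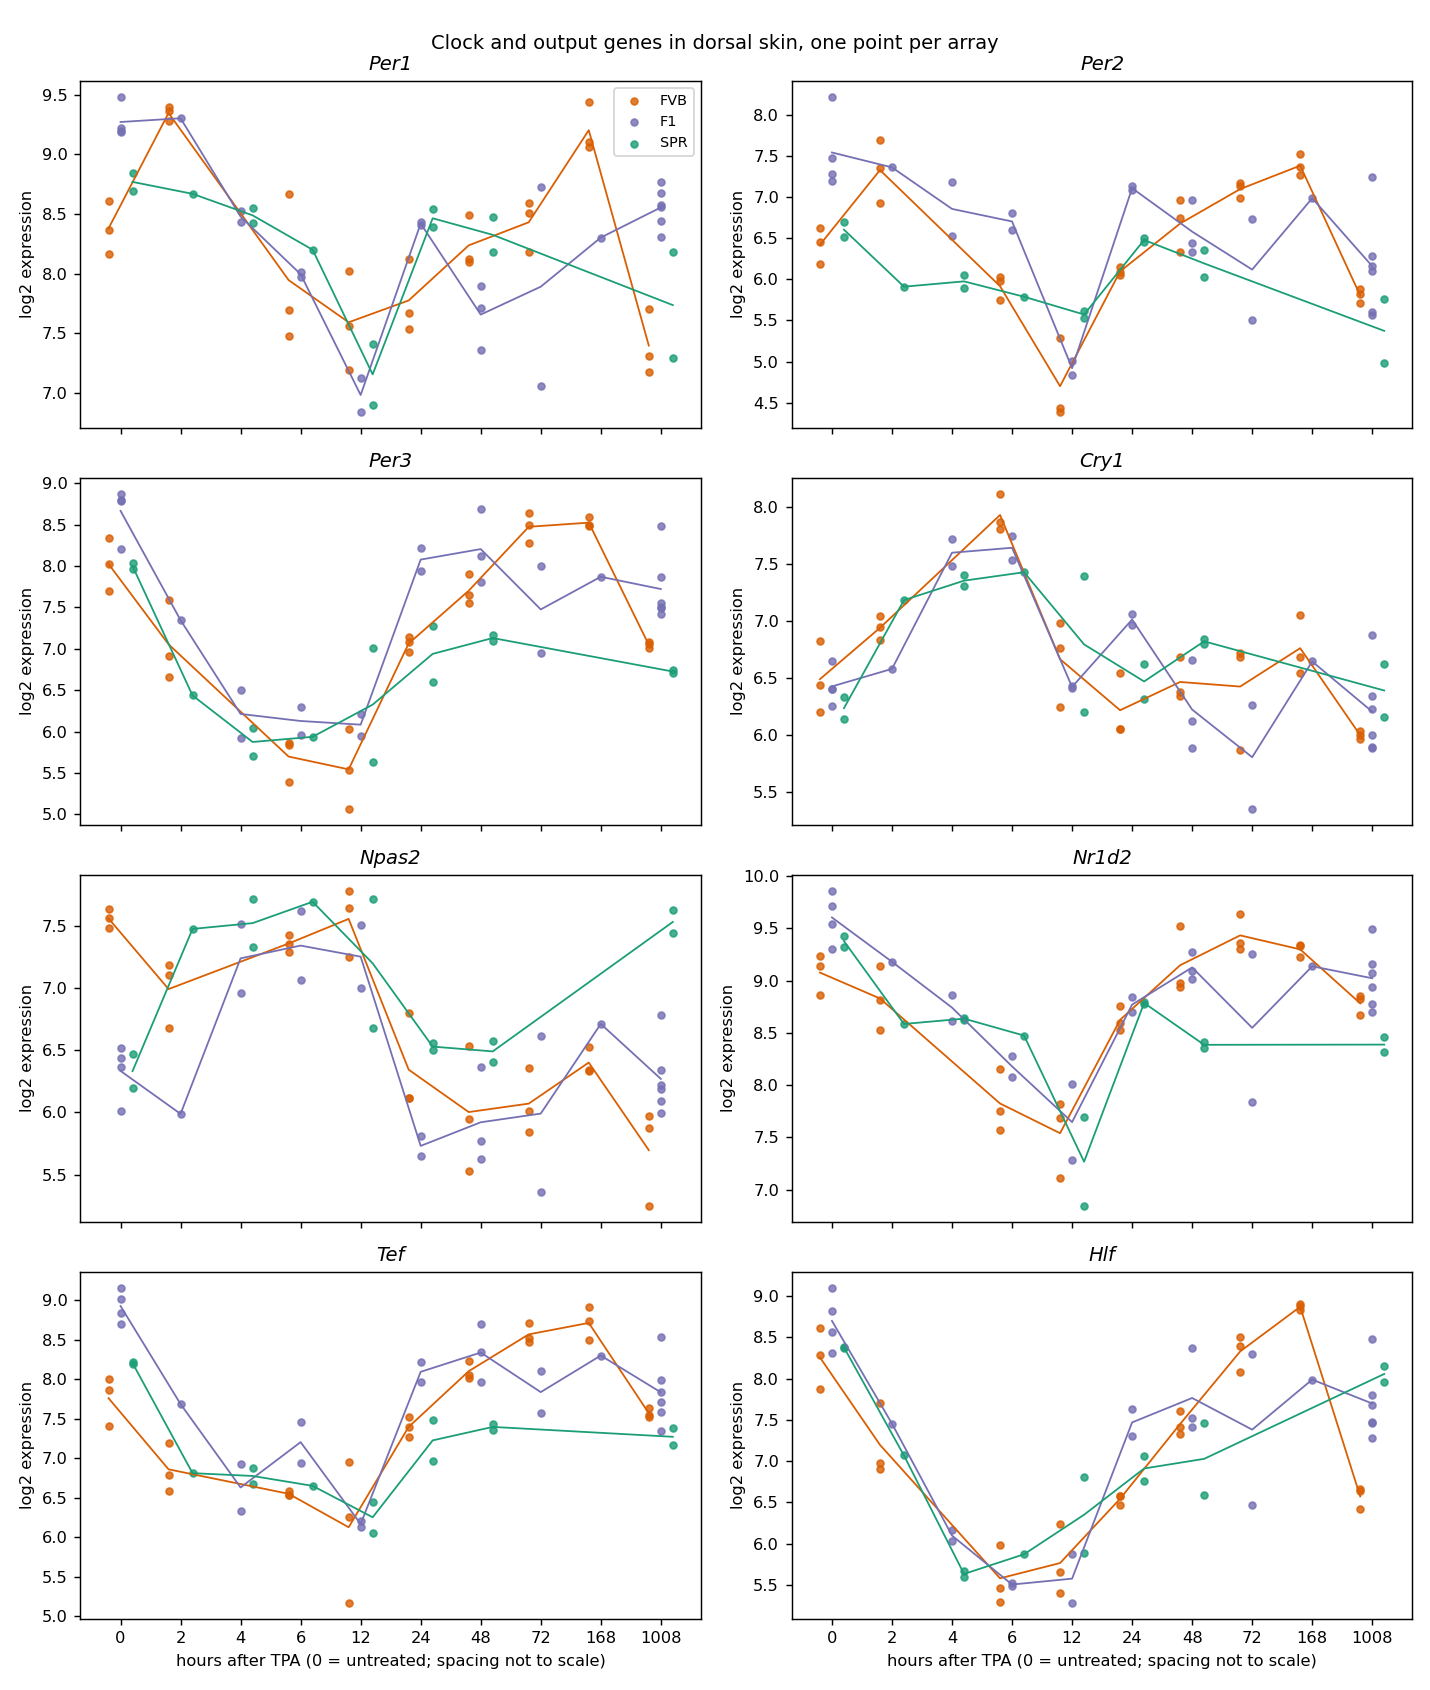
Log2 value of each of the 8 measured genes (panels) on every assigned array, by hours after TPA (0 h is untreated; hours are not spaced to scale), coloured by strain, 1 point per array. Per3, Tef and Hlf lie low between 4 and 12 h in all 3 strains, while Cry1 lies high at 4 and 6 h.

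Among the period genes, which encode the repressors of the clock, Per3 fell early and far in all 3 strains, Per2 fell at 12 h in all 3, and Per1 fell in F1 and SPR. Per3 read 6.03, 5.54 and 5.06 in FVB skin at 12 h, against 8.34, 8.03 and 7.70 in untreated FVB skin, and the groups did not overlap. Its log2 change was -2.33 ± 0.29 at 6 h (limma adjusted p = 4.48e-08) and -2.48 ± 0.29 at 12 h (adjusted p = 3.11e-08). In F1 skin Per3 read 5.92 and 6.50 at 4 h, against 8.21, 8.80, 8.87 and 8.78 at 0 h. The F1 changes of Per3 were -2.45 at 4 h, -2.54 at 6 h and -2.58 at 12 h, nearly flat over these times. In SPR skin Per3 read 5.70 and 6.05 at 4 h, against 7.96 and 8.03 at 0 h, a change of -2.12 ± 0.35. At 12 h the 2 SPR arrays read 7.01 on the array of narrow range and 5.63 on the other, and Per3 changed by -1.67 with both and by -2.36 without the narrow one.

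Per2 was called later than Per3. In FVB it read 5.29, 4.43 and 4.39 at 12 h, against 6.62, 6.45 and 6.19 at 0 h, which is a log2 change of -1.72 ± 0.29 (limma adjusted p = 3.32e-05). In F1 it read 4.83 and 5.01 at 12 h, against 7.27, 7.47, 8.21 and 7.19 at 0 h, a change of -2.62 ± 0.31. Neither strain's groups overlapped at 12 h. At 4 and 6 h Per2 was not called in any strain, with changes between -0.50 and -0.84. In SPR it read 5.53 and 5.61 at 12 h, against 6.69 and 6.51 at 0 h, and its change of -1.03 ± 0.36 was called, but not without the 2 narrow arrays (-0.99).

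Per1, the period gene that is also an immediate early gene, read higher at 2 h in FVB, without a call. It read 9.36, 9.40 and 9.28 in FVB skin at 2 h, against 8.37, 8.61 and 8.16 at 0 h. All 3 treated arrays lay above all controls, but the log2 change of 0.97 was just under the size needed for a call. At 2 h Per2 in FVB read 7.70, 6.93 and 7.35, against 6.62, 6.45 and 6.19, also above all controls and also not called (0.91). The single 2 h arrays of the other strains read 9.30 for Per1 in F1, within the F1 control range of 9.19 to 9.48, and 8.67 in SPR, next to controls of 8.69 and 8.85. At 12 h Per1 read 7.12 and 6.84 in F1, against 9.22, 9.48, 9.19 and 9.19 at 0 h, a fall of 2.29 ± 0.29 (limma adjusted p = 4.04e-07). In SPR it read 6.90 and 7.41 at 12 h, against 8.69 and 8.85 at 0 h, a change of -1.61 ± 0.33. The 1 SPR array left without the narrow one gave a Per1 change of -1.36, as a value only. In FVB at 12 h it read 7.19, 8.03 and 7.56 and was not called (-0.79).

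Cry1, the cryptochrome that joins PER in the repressor complex, was higher between 4 and 6 h. It read 8.12, 7.87 and 7.81 in FVB at 6 h, against 6.44, 6.21 and 6.83 at 0 h, a rise of 1.44 ± 0.26 (limma adjusted p = 3.16e-05). In F1 it read 7.54 and 7.75 at 6 h, against 6.40, 6.40, 6.65 and 6.26 at 0 h, a rise of 1.22 ± 0.27. In SPR Cry1 read 7.41 and 7.30 at 4 h, against 6.33 and 6.14 at 0 h, a rise of 1.12 ± 0.31 (limma adjusted p = 0.0172). Treated and control arrays did not overlap in any of these. The call in SPR was lost without any 1 of its 4 arrays (1.03 to 1.22), and that in F1 at 6 h without replicate 2 at 6 h (1.03). At 12 h Cry1 was not called in any strain, with changes of 0.18 in FVB, -0.00 in F1 and 0.56 in SPR. On the 1 SPR array left at 12 h without the narrow one, the change of Cry1 was 1.16, as a value only.

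Npas2, the partner of Arntl that stands in for Clock, fell late in FVB and rose early in F1 and SPR. In FVB it read 7.24, 7.78 and 7.64 at 12 h, against 7.48, 7.63 and 7.56 at 0 h, so that the groups overlapped. From 24 h it fell in FVB and was still low at the last time: 6.80, 6.11 and 6.11 at 24 h, and 5.87, 5.25 and 5.97 at 1008 h. The log2 changes in FVB were -1.21, -1.56, -1.49 and -1.16 at 24, 48, 72 and 168 h, and -1.86 ± 0.27 at 1008 h (limma adjusted p = 3.00e-06). The call at 168 h was lost without any 1 of 5 of its 6 arrays, and those at 24, 72 and 168 h without FVB controls 2 and 3, where the change of Npas2 was -1.14, -1.41 and -1.08 and 3.27%, 0.0584% and 0.0106% of all genes were called. In F1 Npas2 read 7.06 and 7.62 at 6 h, against 6.52, 6.36, 6.01 and 6.44 at 0 h, a rise of 1.01 ± 0.29 (limma adjusted p = 0.00998). In SPR it read 7.32 and 7.71 at 4 h, against 6.47 and 6.19 at 0 h, a rise of 1.19 ± 0.33. The F1 call was lost without replicate 2 at 6 h (0.69) or control 3 (0.89), and the SPR call without either control or replicate 2 at 4 h (0.99 to 1.33). The difference between F1 and FVB in the change of Npas2 at 6 h was 1.21 ± 0.40 and was not called (limma adjusted p = 0.962). Npas2 was not called after 6 h in F1 or SPR against 0 h. On the 1 SPR array left at 12 h without the narrow one, its change was 1.38, as a value only.

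Nr1d2, the nuclear receptor that represses Arntl alongside Nr1d1, fell at 6 and 12 h in FVB and F1 and at 12 h in SPR. It read 7.82, 7.68 and 7.11 in FVB at 12 h, against 9.23, 9.14 and 8.86 at 0 h, a change of -1.54 ± 0.24. In F1 it read 7.28 and 8.01 at 12 h, against 9.30, 9.72, 9.54 and 9.86 at 0 h, a change of -1.96 ± 0.26. SPR arrays read 7.69 and 6.84 at 12 h, against 9.33 and 9.43 at 0 h, a change of -2.11 ± 0.30, and -2.53 without the narrow array. No 12 h array of any strain reached its controls. A further single-gene probe set of Nr1d2, dim with a mean of 3.47, was not called in these comparisons. At 12 h it read higher in SPR (0.75, with the narrow array included) and lower in FVB (-0.32) and F1 (-0.38).

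Tef and Hlf, the PAR bZIP output activators, fell in all 3 strains. Hlf read 5.99, 5.46 and 5.29 in FVB at 6 h, against 8.61, 8.29 and 7.87 at 0 h. The difference of -2.68 ± 0.31 (limma adjusted p = 1.02e-08) began as -1.06 at 2 h (a call lost without control 1 or 2 or replicate 2 or 3 at 2 h, -1.04 to -0.88) and was still -1.71 at 24 h. In F1 Hlf read 5.53 and 5.48 at 6 h, against 8.31, 8.83, 8.57 and 9.10 at 0 h, which gives -3.20 ± 0.33, the largest change in size of any of the 8 genes at any tested time. SPR arrays read 5.67 and 5.59 at 4 h, against 8.38 and 8.37 at 0 h, a change of -2.75 ± 0.38. The single SPR array at 6 h read 5.87 and that at 2 h read 7.07. Hlf thus lay low on every array between 4 and 12 h, at 5.28 to 6.81, below all controls.

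Tef read 6.95, 6.26 and 5.17 in FVB at 12 h, against 8.01, 7.86 and 7.41 at 0 h, a change of -1.63 ± 0.27 with the widest spread between replicates of the 8 genes at that time in FVB. In F1 it read 6.12 and 6.21 at 12 h, against 8.70, 9.15, 8.83 and 9.02 at 0 h, a change of -2.76 ± 0.28. SPR arrays read 6.05 and 6.45 at 12 h, against 8.21 and 8.20 at 0 h, a change of -1.95 ± 0.33 (-1.76 on the 1 array left without the narrow one). Each of batches 2 and 3 holds 1 F1 array at 12 h. Batch 2 fitted alone called 1 of the 8 genes in F1 at 12 h (0.0319% of all genes), and 6 when the narrow arrays were also left out (4.57%), and batch 3 alone called 7 (8.61%). At 12 h Tef changed by -2.56 in batch 2 and -2.96 in batch 3, Hlf by -3.16 and -3.09, Per3 by -2.32 and -2.84, and Per1 by -2.37 and -2.21.

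**Figure D2:**
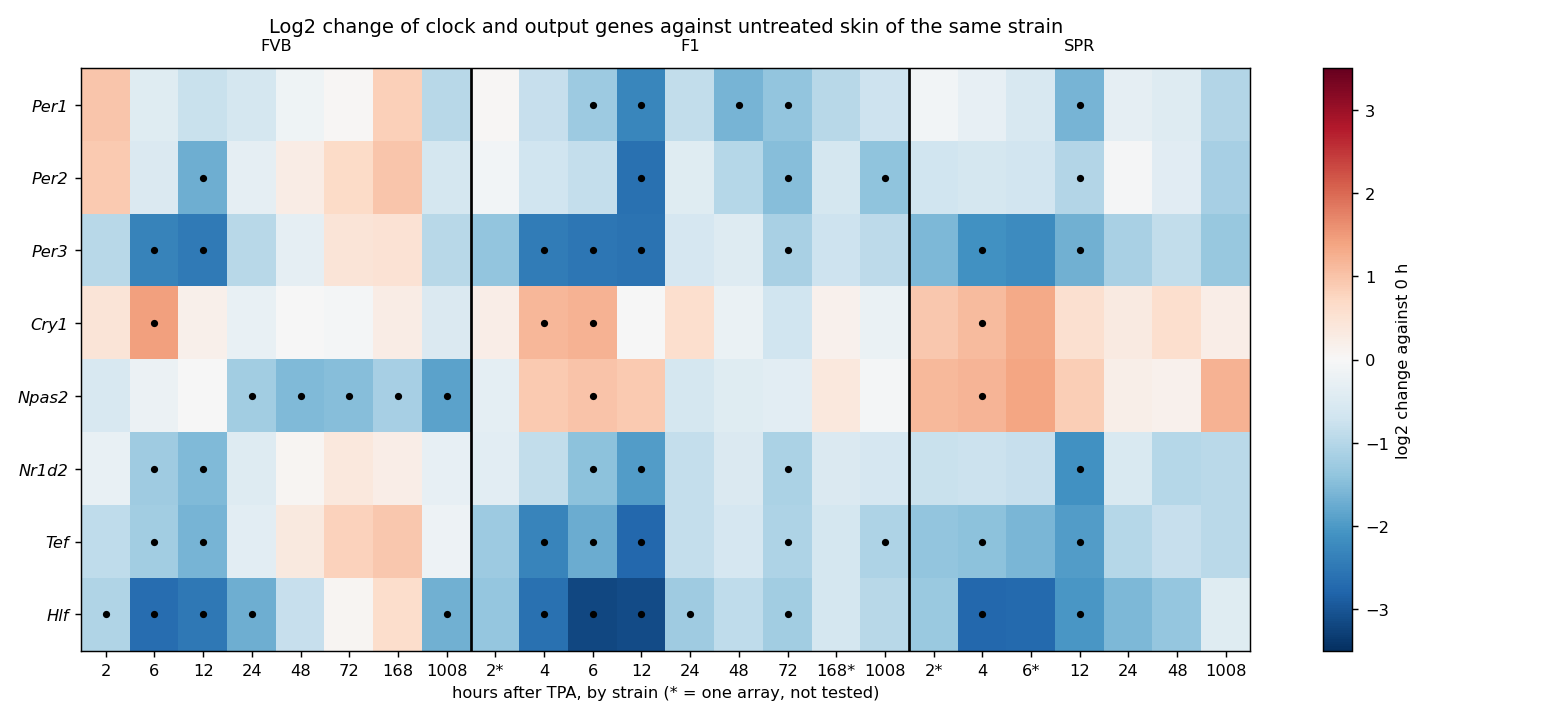
Log2 change against untreated skin of the same strain for the 8 genes (rows) at each time (columns), by strain; blue is lower, red is higher, a dot marks a called gene and an asterisk a time with 1 array. The dark blue block of Per3, Tef and Hlf spans 4 to 12 h, and the dots for Npas2 from 24 h on stand only in FVB.

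Counted over the 8 genes, 1 was called in FVB at 2 h, 5 at 6 h (1 higher, 4 lower) and 5 at 12 h (all lower), where 6.68%, 12.3% and 10.4% of all genes were called. In F1 the counts were 4 at 4 h, 7 at 6 h and 6 at 12 h, where 10.5%, 10.4% and 4.94% of all genes were called. In SPR 5 were called at 4 h and 6 at 12 h, where 5.26% and 18.4% of all genes were called. Without the 2 narrow arrays the SPR count at 12 h was also 6, though with Npas2, called higher, in place of Per2, and 1.04% of all genes were called. With all arrays every call at 12 h was lower, and of all genes 4.94% in FVB, 2.47% in F1 and 15.3% in SPR were called lower at that time (0.42% in SPR without the narrow arrays). The median change over the 8 genes at 12 h was -1.59 in FVB, -2.44 in F1 and -1.64 in SPR (-1.56 without the narrow arrays), and over all genes it was 0.01, -0.00 and 0.02 (-0.04). Per2, Per3, Nr1d2, Tef and Hlf were lower in all 3 strains at 12 h (Per2 in SPR with all arrays only), and Per3, Tef and Hlf were lower and Cry1 higher in both F1 and SPR at 4 h. By the F test over times, 8 of 8 passed in FVB and F1 and 7 in SPR, where 50.9%, 26.7% and 35.3% of all genes passed. The exception was Cry1 in SPR (limma adjusted p = 0.0527). Without the narrow arrays the counts were also 8 in F1 (35% of all genes) and 7 in SPR (13.5%), but there Cry1 passed and Per2 did not (limma adjusted p = 0.0624).

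Other cells' transcripts moved at the same times, and at 12 h 10.4% of all genes were called in FVB and 4.94% in F1. At 12 h in FVB, 9 of 13 measured neutrophil markers rose and 1 fell, with scores of 0.97 to 1.41, against -1.28 to -1.05 at 0 h, and 5 of 12 keratinocyte markers fell, with scores of -0.84 to -0.27, against -0.13 to 0.20. In F1 at 12 h 5 of 13 neutrophil markers rose and 1 fell, and 1 of 12 keratinocyte markers fell, with scores of 0.02 to 0.04, against 0.18 to 0.33. In whole skin, fewer cells of a type and less RNA per cell cannot be told apart, and the part of these markers in the clock gene values was not tested.

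Between 12 and 24 h several of the lowered genes rose again. In FVB, Per2, Per3, Nr1d2 and Tef rose and Npas2 fell, 5 of 8 called where 1.10% of all genes were. In F1, Per1, Per2, Per3, Tef and Hlf rose and Npas2 fell, 6 of 8 where 0.218% of all genes were called. Per2 read 7.13 and 7.08 in F1 at 24 h, against 4.83 and 5.01 at 12 h, a rise of 2.18 ± 0.36 (limma adjusted p = 0.00132). Per3 read 7.14, 6.97 and 7.08 in FVB at 24 h, against 6.03, 5.54 and 5.06 at 12 h, a rise of 1.52 ± 0.29 (limma adjusted p = 0.00105). Npas2 read 5.65 and 5.81 in F1 at 24 h, against 7.50 and 6.998 at 12 h, and 6.80, 6.11 and 6.11 in FVB, against 7.24, 7.78 and 7.64. No 24 h array overlapped the 12 h arrays for any of these. In SPR, Per1 and Nr1d2 rose, 2 of 8 where 21.8% of all genes were called. Against the 1 SPR array left at 12 h without the narrow one, Per1 changed by 1.05 and Nr1d2 by 1.99, as values only. The F1 count fell to 0 without replicate 1 of F1 at 12 h or at 24 h and to 3 without replicate 2 at 12 h, and the FVB count to 3 without replicate 3 at 12 h or replicate 2 at 24 h.

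**Figure D3:**
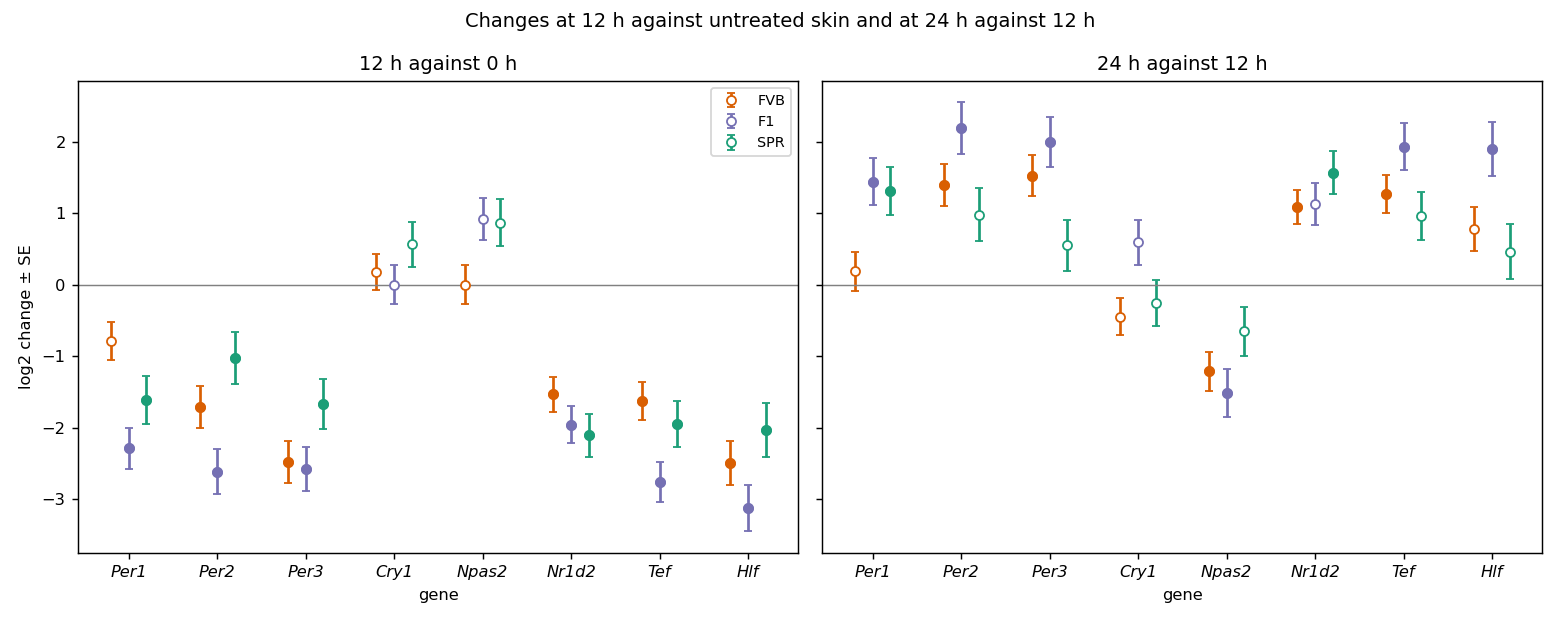
Log2 change ± standard error of the 8 genes at 12 h against 0 h (left) and at 24 h against 12 h (right), by strain; filled points were called and open points were not. Points below 0 on the left for Per2, Per3, Nr1d2, Tef and Hlf stand above 0 on the right in all 3 strains, and Npas2 stands below 0 on the right.

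Later times held fewer calls. Against 0 h, Hlf and Npas2 were called in FVB at 24 h (2 of 8, with 5.48% of all genes), and Npas2 alone at 48, 72 and 168 h (5.95%, 1.88% and 0.383%). At 168 h Per1, Per2, Per3, Tef and Hlf lay above all FVB controls, and none of these was called. The share of all genes that lay above all controls is not given, so this is a description only. Per2 read 7.36, 7.26 and 7.52 at 168 h, against 6.62, 6.45 and 6.19 at 0 h, a change of 0.96. The changes of the other 4 were 0.95 for Tef, 0.82 for Per1, 0.61 for Hlf and 0.50 for Per3. In F1, Hlf was called at 24 h (-1.23, with 1.89% of all genes), a call lost without any 1 of 4 of its 6 arrays (controls 2 and 4 and both 24 h arrays), with F1 fitted alone and in batch 2 alone. Per1 was called in F1 at 48 h (-1.61 ± 0.25, limma adjusted p = 7.09e-05, with 1.39% of all genes). Per1 read 7.36, 7.90 and 7.71 in F1 at 48 h, against 9.22, 9.48, 9.19 and 9.19 at 0 h, below all controls, and its change was -1.67 within batch 2 and -1.44 within batch 3. In F1 at 72 h 6 of the 8 were called lower with 1.99% of all genes, and 0 of 8 with 0% of all genes without the narrow array, where limma gave 2 of 8 an unadjusted p under 0.05 (Per2 changed by -0.88). SPR had 0 of 8 called at 24, 48 and 1008 h (0.260%, 0.207% and 0% of all genes). Limma gave 3, 4 and 6 of the 8 an unadjusted p under 0.05 at these times. Hlf changed by -1.57 at 24 h and by -1.35 at 48 h in SPR, and both changes were called without the narrow arrays, when 0.749% of all genes were called at 24 h. The share at 48 h under this setting is not given, and neither narrow array is in the groups compared here. Hair follicle marker scores were 0.12 and 1.79 in SPR at 24 h and 1.51 and 2.00 at 48 h, against -0.44 and -0.42 at 0 h, and -0.21 and 2.09 in F1 at 24 h, against -0.83 to 2.10 at 0 h. Their part in these changes was not tested.

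At 1008 h, Hlf and Npas2 were called lower in FVB (2 of 8, with 8.14% of all genes). Hlf read 6.42, 6.64 and 6.66, against 8.61, 8.29 and 7.87 at 0 h, a change of -1.69 ± 0.31 after values of 8.90, 8.88 and 8.83 at 168 h. In F1, Per2 and Tef were called lower (2 of 8, with 0.802% of all genes). Per2 read between 5.57 and 7.24 with a median of 6.13 over 6 F1 arrays at 1008 h, against 7.19 to 8.21 at 0 h, so that the groups overlapped, and changed by -1.40 ± 0.23. Tef read between 7.35 and 8.53 with a median of 7.77, against 8.70 to 9.15 at 0 h, a change of -1.09 ± 0.21. Within batch 2 limma called 0 of 8 in F1 at 1008 h (2 with an unadjusted p under 0.05, 0% of all genes called) and within batch 3 it called 5 (5.1%), with Tef at -0.75 in batch 2 and -1.62 in batch 3. Hair follicle markers were high in FVB at this time, where 9 of 12 rose, with scores of 3.17 to 3.40, against -0.31 to -0.16 at 0 h. In SPR the scores were 1.72 and 1.80 at 1008 h, against -0.44 and -0.42 at 0 h, near those at 48 h. In F1 the scores ran from -0.70 to 1.56 at 1008 h, against -0.83 to 2.10 at 0 h. The part of hair growth in the clock gene values was not tested.

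**Figure D4:**
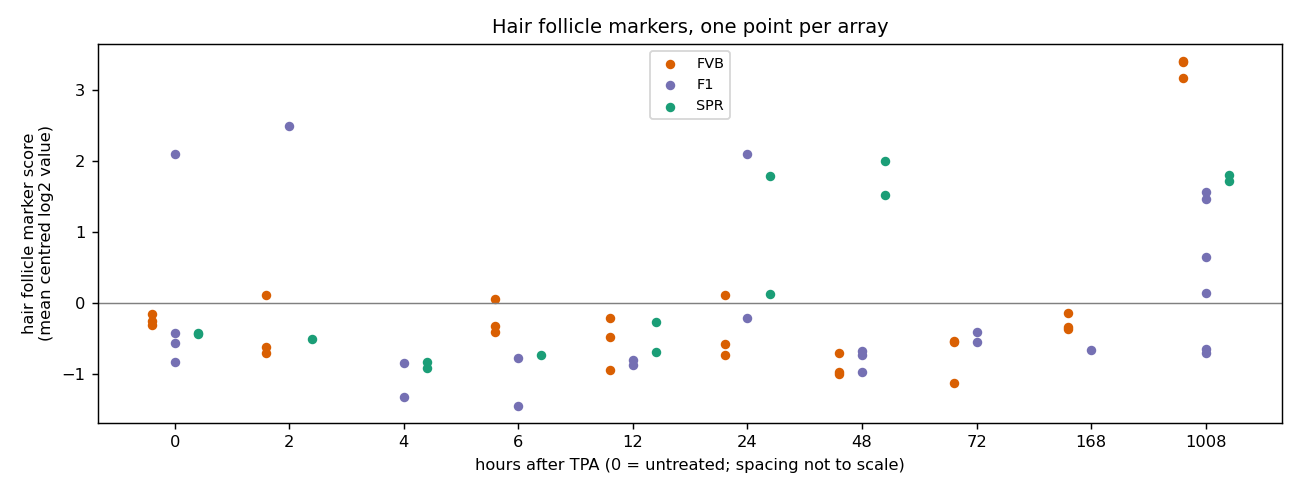
Hair follicle marker score of each array (the mean over 12 markers of the log2 value minus that marker's mean over arrays) by hours after TPA and strain, 1 point per array; hours are not spaced to scale. The 3 FVB arrays at 1008 h, at 3.17 to 3.40, lie above all other arrays.

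Differences between strains were tested as differences of changes. All FVB arrays are batch 1 and the F1 and SPR arrays are batches 2 and 3, so that strain and batch cannot be told apart in any difference with FVB. Over the shared times, 3 of 8 genes passed the F test of F1 minus FVB (Per1, limma adjusted p = 0.00349, Per2, 0.0229, and Npas2, 0.0422) where 1.88% of all genes passed. For SPR minus FVB only Npas2 passed (limma adjusted p = 0.000425) where 20.5% of all genes did, and for SPR minus F1 limma passed 0 of 8, where 0.0106% of all genes passed and 5 of the 8 had an unadjusted p under 0.05. Without the narrow arrays F1 minus FVB passed for 2, Per1 and Npas2 (5.41% of all genes), and SPR minus FVB for 3, Npas2, Nr1d2 and Hlf (5.87%). At single times Npas2 differed most. At 1008 h it read 7.62 and 7.44 in SPR, against 6.47 and 6.19 at 0 h, while FVB fell, and the change differed by 3.07 ± 0.44 (limma adjusted p = 8.93e-05). The F1 arrays read 5.99 to 6.78 at 1008 h, against 6.01 to 6.52 at 0 h, and the change differed from that of FVB by 1.79 ± 0.35 (limma adjusted p = 0.00246), a call lost without FVB controls 2 and 3 (1.71). Of all genes, 1.40% were called for SPR minus FVB and 1.41% for F1 minus FVB at 1008 h. At 72 h 2 of the 8, Per2 and Tef, were called for F1 minus FVB where 0.361% of all genes were, and at 12 h Per2 was called for SPR minus F1 where 5.90% were, and none of these 3 calls held without the narrow arrays. At the other shared times limma called 0 of 8 in any pair of strains. For F1 minus FVB this was so at 6, 12, 24 and 48 h, where 0%, 0%, 0.0106% and 0.0691% of all genes were called and 2, 4, 1 and 4 of the 8 had an unadjusted p under 0.05. For SPR minus FVB it was so at 12, 24 and 48 h, where 17.2%, 0.0106% and 0.143% of all genes were called and 1, 1 and 3 of the 8 had such a p. For SPR minus F1 it was so at 4, 24, 48 and 1008 h, where 0.00531%, 0%, 0% and 0% of all genes were called and 0, 0, 2 and 1 of the 8 had such a p. Without the narrow arrays the change of Npas2 also differed from FVB at 48 h, by 1.14 in F1 and 1.71 in SPR. The 1 F1 array left at 72 h gave a difference of 1.76 for Npas2, as a value only. The change of Per1 differed by -1.503 at 12 h and -1.47 at 48 h in F1 minus FVB, and that of Hlf by 1.26 at 1008 h in SPR minus FVB. The share of all genes called for these differences under this setting is not given. Neither narrow array is in the groups compared at 48 or 1008 h. Untreated SPR and F1 skin differed in none of the 8 genes by the call (limma, 0.239% of all genes called), and 2, Per2 and Tef, had an unadjusted p under 0.05. All 8 read lower in SPR by the fit (median -0.39, against 0.07 over all genes), but for only 4 did the arrays of the 2 strains not overlap. Npas2 had a mean of 6.33 in each strain. The share of all genes that read lower is not given. Probe sets designed on a laboratory strain may bind Spret/Ei transcripts less well, so lower readings and lower expression cannot be told apart here. Per2 read 6.69 and 6.51 in SPR, against 7.27, 7.47, 8.21 and 7.19 in F1, and Tef read 8.21 and 8.20 in SPR, against 8.70, 9.15, 8.83 and 9.02 in F1.

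Of 15 other core clock names, 10 were measured. In FVB 2 rose and 0 fell at 2 h, 2 rose and 1 fell at 6 h, and 2 rose and 2 fell at 12 h. At these times 6.68%, 12.3% and 10.4% of all genes were called. Bhlhe40 (a repressor that competes at E-boxes) and Nfil3 (the repressor of D-boxes) were the risers, by 2.70 ± 0.29 and 2.09 ± 0.31 at 2 h in FVB. Bhlhe40 also rose in F1 at 4, 6 and 12 h (1.97, 1.80 and 1.02) and in SPR at 4 h (2.24), and in FVB it was called at each time to 72 h and at 1008 h (1.46). Nfil3 rose in F1 by 1.08 at 4 h and 1.02 at 6 h and in SPR by 1.498 at 4 h. Cry2, the other cryptochrome, did not follow Cry1: it changed by -1.66 in FVB at 12 h, by -1.42, -1.20 and -2.07 in F1 at 4, 6 and 12 h, and by -1.34 and -1.39 in SPR at 4 and 12 h, all called lower. Ciart, a repressor whose own level follows the clock, was called lower at 6 and 12 h in FVB (-1.22 and -1.76) and in F1 (-1.24 and -2.23). Arntl and Clock, the activators, were not called at any time in any strain: at 12 h Arntl changed by 0.63 in FVB and 0.87 in F1, and Clock by 0.19 in FVB and 0.31 in F1.

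**Figure D5:**
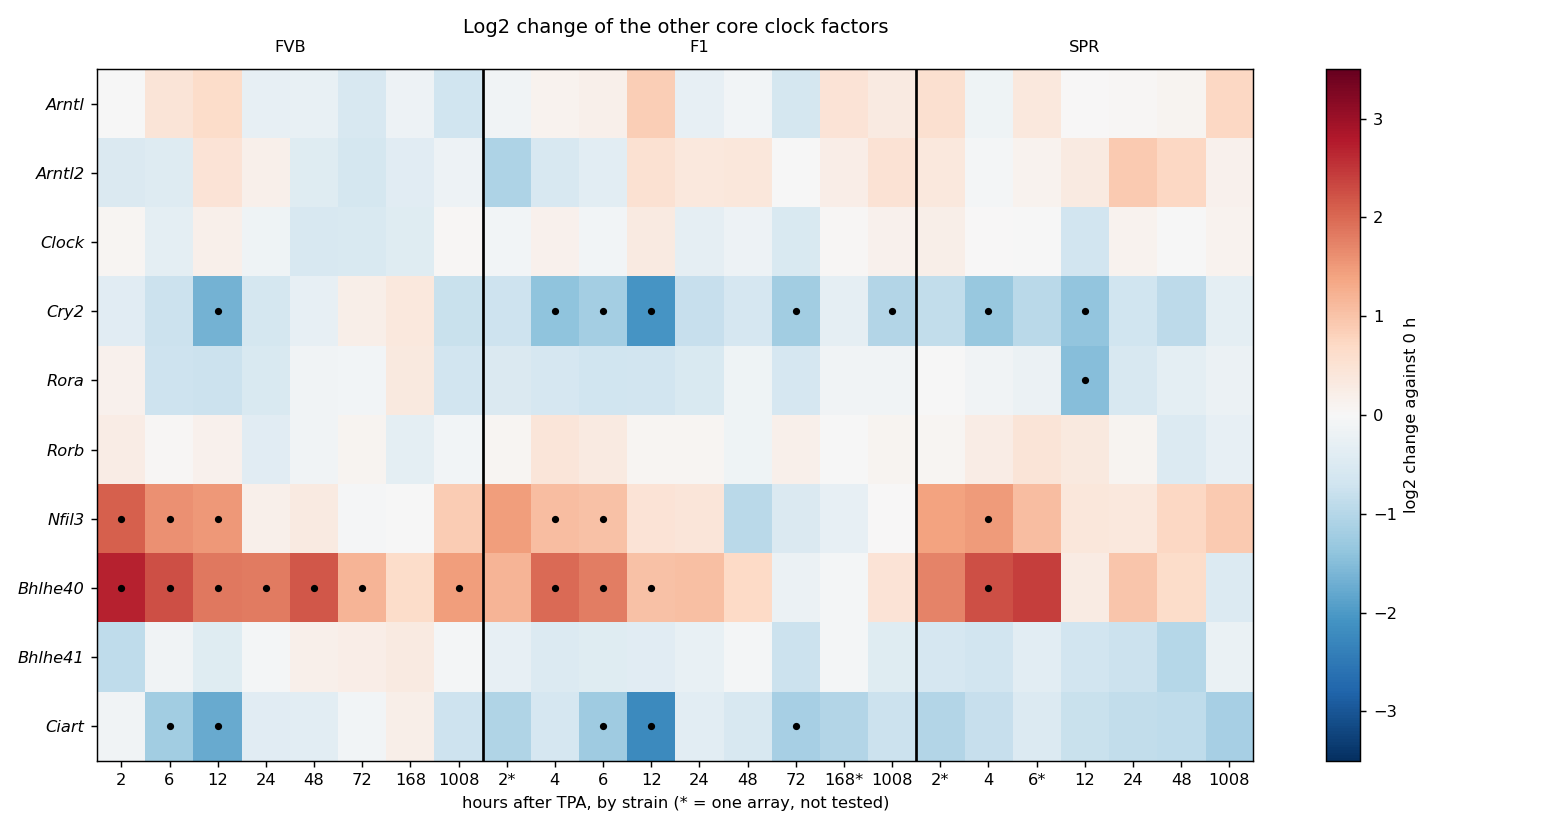
Log2 change against untreated skin for the 10 other core clock factors (rows) at each time (columns) by strain; blue is lower, red is higher, a dot marks a called gene and an asterisk a time with 1 array. Bhlhe40 and Nfil3 are red at the early times, Cry2 and Ciart are blue, and Arntl and Clock carry no dot.

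Likeness was measured as Pearson's r over 27 group means after each strain's own mean was subtracted. It is a description, since the points share batches and times. Some points are single arrays, and those of SPR at 12 h and F1 at 72 h include a narrow array. Among the members, Per3 was most like Tef (0.94) and Hlf (0.94), and Tef and Hlf had 0.87. Per1 and Per2 had 0.83, and Nr1d2 and Tef 0.85. Cry1 ran opposite to Per3 (-0.56) and Npas2 opposite to Per3 (-0.68). Over all genes the 3 most alike to Per1 were Sik1 (0.90), Ccn2 (0.87) and Ccnd2 (0.83), and to Per2 they were Per1, Ciart (0.82) and Tppp3 (0.78). For Hlf they were 1110051M20Rik (0.96), Slc22a4 (0.95) and Dzip1 (0.95), and Slc22a4 was also among the most alike to Per3 (0.93). Tef was next most like Cry2 (0.91) and Dyrk1b (0.88) after Per3. For Cry1 they were Camkk2 (0.88), Dhx33 (0.87) and Simc1 (0.85), for Npas2 Gldn (0.84), Cyp26b1 (0.81) and Plpp5 (0.81), and for Nr1d2 Ptn (0.88), Use1 (0.87) and Ccni (0.87).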

How the data were processed

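Expression was measured on 69 Affymetrix arrays of dorsal skin RNA. The deposited values are log2 expression values of 35556 probe sets, and RMA is the tool named in the submitters' processing notes, with no version. The treatment of batches ahead of deposit is not stated in those notes. Of the probe sets, 21218 name a single gene in the platform annotation, 1881 name several and were not used, and 12457 are unnamed here. For 18820 genes, the brightest probe set by mean over 66 assigned arrays was used (probe set 10377439 for Per1, 10356601 for Per2, 10518781 for Per3, 10371400 for Cry1, 10345675 for Npas2, 10417734 for Nr1d2, 10425601 for Tef and 10389786 for Hlf).

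Groups came from the labels' strain and hours. Tests were two-sided and used limma 3.58.1 (lmFit, eBayes) under R 4.3.3. A single fit held the means of 27 groups and a difference between batches 3 and 2, with 38 residual degrees of freedom. Moderated F tests over times used the adjusted p without a fold threshold. The number of arrays limits the precision. The fit was tested on simulated data with changes set in FVB at 12 h alone and with no batch difference or narrow array. That test does not bear on the calls in F1 and SPR.

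Members and gene lists were chosen with earlier results of these data known. The genes named are the members, members of the lists and, for each member, the 3 genes most alike to it. The lists were other core clock factors, clock kinases and ubiquitin ligases, clock-controlled outputs, glucocorticoid-induced genes, and markers of keratinocytes, muscle, adipocytes, hepatocytes, hair follicles, neutrophils, macrophages, lymphocytes, fibroblasts and mitosis. Only changes were compared between FVB and the other strains. Alternatives covered eBayes settings, scaling, dim probe sets, fold threshold, fits by strain and by batch, a replicate block, other probe sets and arrays left out. Within-batch fits without the narrow arrays were added after the data were seen.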

Additional observations from a re-analysis of the deposited data

Results flagged for a closer look

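In untreated F1 skin, Per1 read 9.483 in replicate 2, against 9.220 in the nearest of the other 3 arrays, and this array lay far from the rest for the range of the group. In the same group Per3 read 8.209 in replicate 1, against 8.782 in the nearest, and was set apart by the low side. Replicate 1 also had a hair follicle marker score of 2.10, against -0.83 to -0.42 in the other 3 arrays, and the part of those markers was not tested. Chance sets apart about 1 in 20 groups in this way.

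Per2 and Tef changed differently in F1 than in FVB at 72 h, by -2.169 ± 0.436 and -1.879 ± 0.394 (limma adjusted p = 0.0217 and 0.0247). Without the narrow F1 array the differences were -1.55 for Per2 and -1.61 for Tef and neither was called. Npas2 changed differently at 1008 h, by 1.793 in F1 minus FVB and by 3.074 in SPR minus FVB, and the SPR difference was called under every alternative tried for it. Per2 changed differently in SPR than in F1 at 12 h, by 1.588 ± 0.478 (limma adjusted p = 0.0439), and the difference for Per2 was 1.63 and not called without the narrow arrays.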

How the results depend on the processing

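Of 74 called values of the 8 genes, 19 kept their direction and call under every alternative, among them Per3, Cry1, Tef and Hlf at 6 h, Per2, Per3, Tef and Hlf at 12 h and Npas2 at 48 and 1008 h in FVB, and Per3 and Tef at 4 h, Hlf at 6 h and Tef at 12 h in F1. The 3 reversals were all of Nr1d2 with its other, dim probe set: 0.252 in F1 at 72 h, 0.748 in SPR at 12 h and -0.435 in SPR at 24 h against 12 h. Each of these 3 comparisons includes a narrow array, and the part of that array was not tested. At 6 and 12 h the dim probe set changed by -0.28 and -0.32 in FVB and by -0.10 and -0.38 in F1, not called. Counts of called genes, of 8 and against 0 h unless said, moved as follows, and the cause was not tested. Smaller moves are not all listed, such as 7 in F1 and 5 in SPR at 12 h with centring, against 6 in each in the main fit. Leaving out 1 array also moved the counts in F1 at 6 h and in SPR at 12 h. The share of all genes called moved with the setting too, as in F1 at 1008 h (0% in batch 2 alone, 5.1% in batch 3 alone). It is not given beside each count, so these counts describe the settings and not the 8 genes in particular. Centring on array medians, which shifts all genes by up to 0.18, gave 2 in FVB at 2 and 168 h, 0 in F1 at 72 h and 1 in SPR at 24 h. Cyclic loess gave 2 in FVB at 168 h, 1 in F1 at 72 h, 3 in SPR at 12 h, 1 in SPR at 24 h, 0 in SPR at 24 h against 12 h, and for differences of changes 1 in F1 minus FVB and 1 in SPR minus FVB at 48 h and 0 in SPR minus F1 at 12 h. Without dim probe sets SPR at 24 h had 1. Without a fold threshold there were 5 in FVB at 2 h, 4 in FVB at 1008 h, 7 in F1 at 4 h, 2 in F1 at 48 h, 4 in F1 at 1008 h and 4 in SPR at 24 h against 12 h. F1 fitted alone had 0 at 24 h, and SPR fitted alone had 0 at 4 h, 12 h, 24 h against 12 h and in the F test over times. Within batch 2, F1 had 2, 1, 1, 0, 0, 0 and 0 at 4, 6, 12, 24, 48, 72 and 1008 h, 0 at 24 h against 12 h and 1 in the F test. SPR had 3 at 4 h, 2 at 12 h, 0 at 24 h against 12 h and 1 in the F test, and SPR minus F1 had 0 at 12 h. Within batch 3, F1 had 2 at 24 h and 5 at 1008 h. Within batch 2 without the narrow arrays, F1 had 0 at 24, 72 and 1008 h and 1 at 24 h against 12 h, SPR had 1 at 48 h and 1 at 24 h against 12 h, and SPR minus F1 had 0 at 12 h. Without the narrow arrays alone, F1 had 0 at 72 h, SPR 1 at 24 and 48 h and at 24 h against 12 h, F1 minus FVB 1 at 12 h, 2 at 48 h and 1 at 72 h, SPR minus FVB 1 at 48 h and 2 at 1008 h, and SPR minus F1 0 at 12 h. Without FVB controls 2 and 3, FVB had 1 at 24 h and 0 at 2, 72 and 168 h, and F1 minus FVB 0 at 72 h and 0 at 1008 h. Leaving out 1 array at a time gave 1 to 3 in FVB at 2 h (3 without control 3 or replicate 1 at 2 h), 0 to 1 at 168 h, 2 to 4 at 1008 h (4 without control 3) and 3 to 5 at 24 h against 12 h. It gave 0 to 1 in F1 at 24 h, 1 to 2 at 48 h, 0 to 7 at 72 h, 1 to 4 at 1008 h and 0 to 4 at 24 h against 12 h. In SPR it gave 3 to 3 at 4 h and 1 to 4 at 24 h against 12 h. For differences it gave 0 to 1 at 48 h and 0 to 6 at 72 h in F1 minus FVB, 0 to 2 at 12 h and 0 to 1 at 48 h in SPR minus FVB, and 0 to 3 in SPR minus F1 at 12 h. A group left with 1 array was taken to vary like the others. With the replicate number as a block, the FVB counts stayed at 5 at 6 h and 5 at 12 h and no call changed, and same-numbered FVB arrays showed no common deviation (median r of -0.0087 over 108 pairs, from -0.61 to 0.46), so the numbers are not taken as pairs. The median r between other pairs was -0.0092.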

Other observations

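Genes that act on clock proteins or follow the clock were described by lists chosen with earlier results known, and the calls at 12 h in SPR rest partly on the array of narrow range, where all 12 keratinocyte markers were also called lower. Of 11 measured clock kinases and ubiquitin ligases, 1 rose and 0 fell in FVB at 2 h and at 6 h, and 0 rose and 1 fell at 12 h. Of all genes 6.68%, 12.3% and 10.4% were called at these times, so these counts do not set the list apart. The early riser at 2 h was Usp2 (a ubiquitin protease and clock output), by 1.32, and that at 6 h was Csnk1d (a casein kinase that phosphorylates PER proteins), by 1.08. Btrc (a ubiquitin ligase subunit for PER proteins) fell by 1.14 in FVB at 12 h.

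Of 11 clock-controlled outputs, 1 rose and 3 fell in FVB at 6 h, 1 rose and 2 fell in F1 at 6 h, and 1 rose and 3 fell in SPR at 4 h. In these comparisons 12.3%, 10.4% and 5.26% of all genes were called. Ppara (a nuclear receptor of lipid metabolism) was called lower at 6 h in FVB (-2.10) and F1 (-2.03) and at 4 h in SPR (-1.53). Wee1 (a kinase that delays mitosis) was called lower at 6 h in FVB (-1.08) and F1 (-1.49) and at 4 h in SPR (-1.32). Tfrc (the transferrin receptor) rose in all 3 strains, by 1.15 in FVB and 1.55 in F1 at 6 h and by 1.04 in SPR at 4 h.

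The mean score of the glucocorticoid-induced genes was 0.44 to 1.02 in FVB at 2 h and -0.37 to -0.07 at 12 h, against -0.00 to 0.21 at 0 h, and -0.54 and -0.48 in F1 at 12 h, against 0.15 to 0.54 at 0 h. These groups did not overlap their controls, and the scores were not tested. Of 10 measured, 3 rose and 0 fell in FVB at 2 h, and 1 rose and 2 fell at 12 h, and in F1 0 rose and 3 fell at 12 h. In these comparisons 6.68%, 10.4% and 4.94% of all genes were called. Mt1 (a metallothionein) rose by 2.16 in FVB at 2 h and by 1.74 in F1 at 4 h. Tsc22d3 (also known as Gilz) was called lower at 12 h in FVB (-1.24) and F1 (-2.39), as was Zbtb16 (-2.30 and -2.71), and Klf9 (which also follows the clock) was called lower in F1 (-1.54).

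Of 17 mitosis genes, 8 fell in FVB at 6 h, and 16 rose and 0 fell at 24 h in FVB and in F1. In these comparisons 12.3%, 5.48% and 1.89% of all genes were called. At 12 h in FVB, where 10.4% of all genes were called, 3 of 11 macrophage markers rose and 0 fell, and 1 of 9 fibroblast markers rose and 3 fell. There 5 of 11 lymphocyte markers fell, but the FVB controls differed widely, with lymphocyte scores of -0.19, 0.91 and 1.45. The 12 h scores were -0.37 to -0.21, next to the lowest control, and F1 controls ran from -0.14 to 0.10. At 6 h in FVB 1 of 11 adipocyte markers had fallen (12.3% of all genes called). Muscle marker scores ranged from -2.41 to 0.21 in FVB at 12 h, against -0.28 to 0.47 at 0 h. Of 19 hepatocyte markers, limma called 9 lower in FVB at 2 h, where 6.68% of all genes were called in either direction.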
